A study of Drosophila melanogaster with 12 samples.

Results

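The yolk protein genes, the larval serum protein genes and the *Fat body protein* genes of *Drosophila melanogaster* encode secreted or fat body proteins that store amino acids or help to take them up. The group was chosen by name, with earlier results of these data known. It holds 9 genes, *Yp1*, *Yp2*, *Yp3*, *Lsp1alpha*, *Lsp1beta*, *Lsp1gamma*, *Lsp2*, *Fbp1* and *Fbp2*, of 21076 in the gene table. Their mRNA was measured in whole adult males of 2 genotypes. The controls were *w1118* flies, a white-eyed laboratory stock that served as wild type. The mutants were homozygous for *Mettl16 1-9*, a frameshift allele made by genome editing in *Mettl16*, which encodes an RNA methyltransferase that places N6-methyladenosine (m6A). Each genotype had 3 biological replicates, each from poly(A) RNA of about 50 pooled males, and each RNA gave an input library and a library of fragments captured with an m6A antibody (IP). The mutants are a single allele, and the age of the flies is not given in the sources used here. RNA of whole flies mixes all tissues, so more cells of one type and more RNA per cell cannot be told apart.

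Yolk proteins are made by the fat body and the ovarian follicle cells of females and are taken up by the growing oocyte through the receptor Yolkless. Their genes are switched on in females and held low in males by the sex-specific forms of Doublesex. The larval serum proteins are hexamers of the hexamerin family that the larval fat body secretes into the hemolymph late in larval life. LSP1 is built from alpha, beta and gamma subunits and LSP2 from a single kind. Before pupation the fat body takes them back as protein granules, and they serve as an amino acid reserve during metamorphosis. Fbp1 is the fat body receptor for LSP1 uptake and its gene responds to the steroid hormone ecdysone. Fbp2 is a fat body protein related to alcohol dehydrogenase.

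Expression was given as FPKM, fragments scaled to exon length and to the mapped fragments of the library, a level that can be compared between genes. The 6 input libraries held 5.32 to 6.48 gigabases of aligned sequence, and 17763 to 18106 genes had a level above 0. On the log2(FPKM + 1) scale, libraries correlated at 0.991 to 0.994 within a genotype and at 0.946 to 0.955 between genotypes. *Mettl16* itself, listed as CG7544, stood at 0.971, 0.824 and 1.19 FPKM in *w1118* and at 0.430, 0.285 and 0.232 FPKM in the mutants (log2 fold change -0.60, SE 0.11, limma adjusted p = 0.0031). Differences between genotypes below are log2 fold changes of FPKM + 1 from limma, fitted over the 13866 genes whose mean reached 0.5 FPKM, with two-sided p-values adjusted by Benjamini-Hochberg and a threshold of 0.05. The added 1 makes fold changes of low genes smaller than the ratio of their levels.

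Of the 9 genes, 7 rose in *Mettl16* mutants and none fell. All 4 larval serum protein genes, both *Fbp* genes and *Yp3* were the genes that rose, while *Yp1* and *Yp2* did not pass the test. The same 7 genes had no overlap between the genotypes, every mutant library lying above every *w1118* library. Among all tested genes 22.9% rose and 26.7% fell, 49.6% in all. Without overlap 29.7% were higher and 30.5% lower. The 9 genes had a median log2 fold change of 0.64 against 0.01 over all tested genes. *Lsp1alpha*, *Lsp1beta* and *Lsp2* rose with a log2 fold change over 1, as 2.47% of tested genes did. No gene of the group fell at an unadjusted p under 0.05 either.

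**Figure D1:**
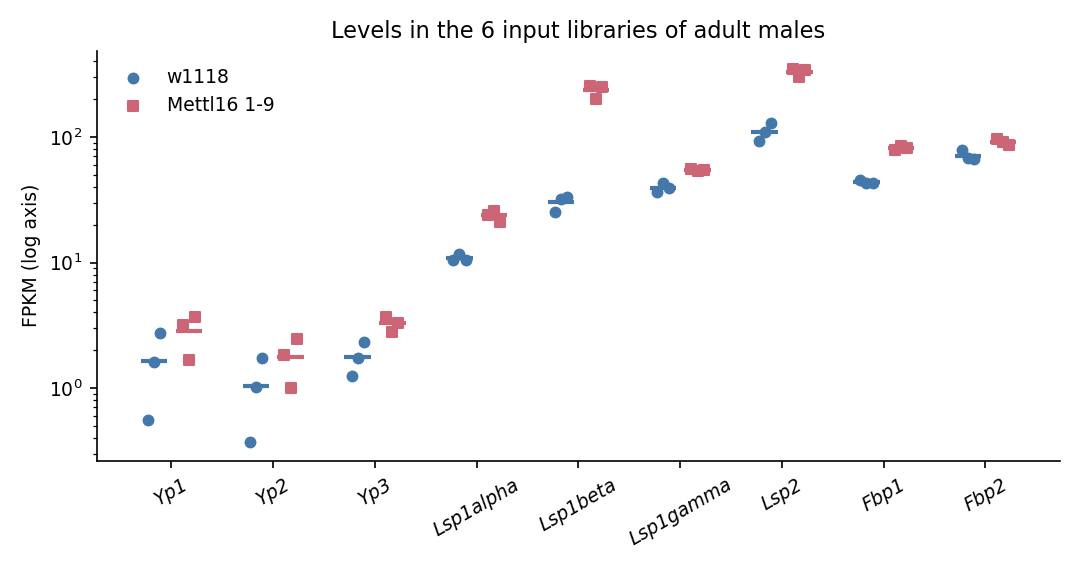
Level of each of the 9 genes (FPKM, log scale) in the 3 *w1118* and 3 *Mettl16 1-9* input libraries of adult males, one point per library and a bar at the mean of each genotype. The points of the genotypes are apart for the larval serum protein genes, the *Fbp* genes and *Yp3*, and overlap for *Yp1* and *Yp2*.

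*Lsp1beta*, which encodes the beta subunit of LSP1, showed the strongest rise of the group. The gene (FBgn0002563, plus strand of 2L, 898500 to 901316) stood at 25.4, 32.3 and 33.1 FPKM in *w1118* and at 254.6, 202.7 and 250.1 FPKM in the mutants. The lowest mutant library was thus far above the highest control. The means were 30.3 ± 4.24 and 236 ± 28.8 FPKM (SD, n = 3 each), a ratio of 7.79. The log2 fold change was 2.92 (SE 0.12, 95% confidence interval 2.64 to 3.21, limma adjusted p = 3.5e-06). Only 29 of the 13866 tested genes (0.209%) had a higher log2 fold change. By level, *Lsp1beta* moved from between rank 2308 and rank 3121 of the 21076 genes in control libraries to between rank 300 and rank 377 in mutant libraries.

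*Lsp2*, the gene of the other serum hexamer, was the most abundant gene of the group in both genotypes. It lies on the plus strand of 3L (FBgn0002565, 12129393 to 12131869), and its level was 93.0, 110.001 and 128 FPKM in *w1118* and 346, 301 and 344 FPKM in the mutants. All mutant libraries lay above all control libraries. The mean rose from 110.4 ± 17.6 to 330.2 ± 25.5 FPKM, a ratio of 2.99, with a log2 fold change of 1.58 (SE 0.12, 95% confidence interval 1.31 to 1.85, limma adjusted p = 3.9e-05).

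*Lsp1alpha*, on the plus strand of X (FBgn0002562, 12490291 to 12492982), encodes the alpha subunit and was the lowest of the larval serum protein genes. It was at 10.5, 11.6 and 10.6 FPKM in *w1118* and at 24.1, 25.9 and 21.1 FPKM in the mutants. Replicates were close in both genotypes, at means of 10.9 ± 0.600 and 23.7 ± 2.40 FPKM. The log2 fold change was 1.05 (SE 0.082, 95% confidence interval 0.86 to 1.24, limma adjusted p = 5.1e-05).

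*Lsp1gamma*, the gene of the gamma subunit (FBgn0002564, plus strand of 3L, 66430 to 68995), showed the smallest rise among the larval serum protein genes. Its level was 36.5, 43.0 and 39.0 FPKM in *w1118* and 55.5, 53.1 and 54.5 FPKM in the mutants. The genotypes did not overlap. The means were 39.5 ± 3.31 and 54.4 ± 1.21 FPKM, a ratio of 1.38, and the log2 fold change was 0.45 (SE 0.068, 95% confidence interval 0.30 to 0.61, limma adjusted p = 0.0010).

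The subunit genes of LSP1 therefore changed by unequal factors. In *w1118* the level of *Lsp1beta* relative to *Lsp1gamma* was 0.697, 0.751 and 0.849, below 1 in every library. In the mutants the same ratio was 4.58, 3.82 and 4.59. The mean log2 ratio differed by 2.50 between genotypes without overlap, and the exact permutation test gave p = 0.1, two-sided, the smallest that 3 against 3 libraries allow. Relative to *Lsp1alpha*, *Lsp1beta* went from 2.41, 2.79 and 3.14 to 10.6, 7.83 and 11.8, a difference of 1.85 in mean log2 ratio (exact permutation p = 0.1). The ratio of *Lsp2* to *Lsp1beta* fell from 3.66, 3.40 and 3.87 to 1.36, 1.48 and 1.38, again without overlap (exact permutation p = 0.1).

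The summed level of the 4 larval serum protein genes was 165, 197 and 211 FPKM in *w1118* and 680, 582 and 670 FPKM in the mutants, a ratio of means of 3.37. As a share of all summed FPKM this was 0.0341 to 0.0433% and 0.125 to 0.149%. Within that sum, *Lsp1beta* made up 15.8% ± 0.537 in *w1118* and 36.5% ± 1.50 in the mutants (SD, n = 3 each). The share of *Lsp1gamma* was 20.8% ± 2.00 and 8.47% ± 0.562, and that of *Lsp1alpha* was 5.75% ± 0.687 and 3.71% ± 0.661. *Lsp2* held the largest share in both genotypes, 57.6% ± 2.75 and 51.3% ± 0.396. The shares of all 4 genes were without overlap between genotypes. They sum to a fixed total, so a rise of one lowers the others.

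**Figure D2:**
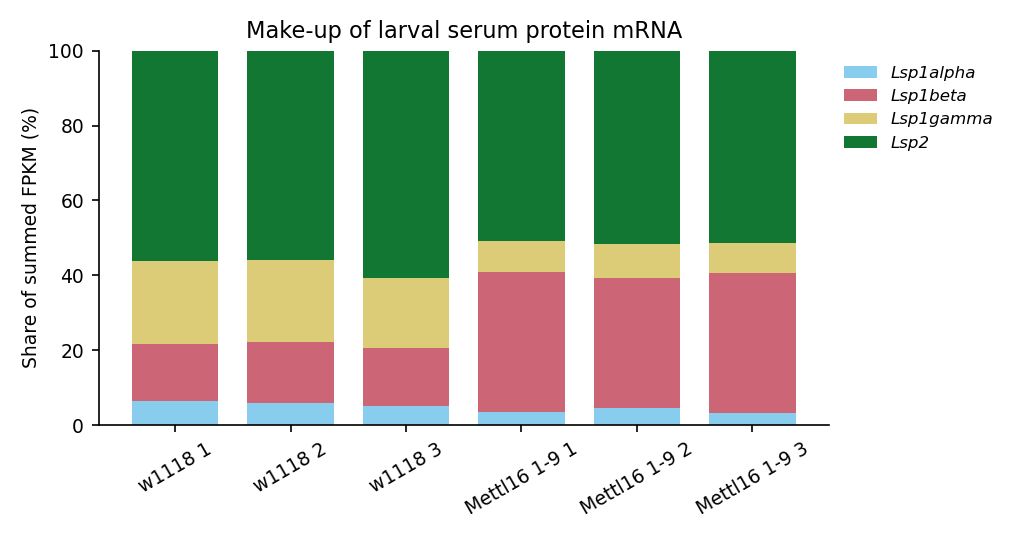
Share of each larval serum protein gene in their summed FPKM (percent, stacked), one bar for each of the 6 input libraries. *Lsp1beta* holds 15.4 to 16.4% in the *w1118* libraries and 34.8 to 37.4% in the mutant libraries.

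The larval serum proteins belong to the same protein superfamily as the prophenoloxidases, copper enzymes of melanin formation. Of the 3 prophenoloxidase genes only *PPO2*, whose enzyme is stored in crystal cells of the hemolymph, reached the filter, and it rose from 0.501 ± 0.0078 to 1.78 ± 0.044 FPKM (log2 fold change 0.89, SE 0.081, limma adjusted p = 0.00010). Under the filter, *PPO1* was at 0.104, 0.245 and 0.119 FPKM in *w1118* and at 0.605, 0.720 and 1.08 FPKM in the mutants, without overlap. *PPO3* had at most 0.196 FPKM. With no filter 2 genes of this list rose, as with TPM scaling.

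Genes of larval tissues had at most 1.13 FPKM in any library apart from a cuticle gene. Of 26 listed genes of larval salivary glands, ecdysone-induced 71E genes and larval cuticle, 20 were matched and 2 reached the filter. *Sgs4* and *Eig71Ee* were at 0 in every library, and the other glue genes, which make the secretion that fixes the puparium, had at most 0.422 FPKM. *Lcp1*, a larval cuticle protein gene, rose from 1.66 ± 0.387 to 10.9 ± 1.27 FPKM (log2 fold change 2.17, SE 0.12, limma adjusted p = 1.2e-05) and was the only one of the 2 tested genes that rose. The other tested gene, *Eig71Eb*, was lower in every mutant library, at 0.687 to 1.13 FPKM in *w1118* and 0.522 to 0.546 FPKM in the mutants. It did not pass the threshold (log2 fold change -0.28, SE 0.11, limma adjusted p = 0.0737). With no filter 3 genes of the list rose. Under the filter, *Sgs1*, a glue gene, had 0.0364 to 0.0839 FPKM in *w1118* and 0.382 to 0.422 FPKM in the mutants, and *Lcp3*, a cuticle gene, 0 to 0.0387 and 0.256 to 0.305 FPKM, both without overlap. The summed level of the matched genes was 2.95 to 3.40 FPKM in *w1118* and 11.0 to 14.2 FPKM in the mutants. Without *Lcp1* the other 19 summed to 1.32 to 1.62 and 1.49 to 2.19 FPKM, which overlapped between genotypes.

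Markers of the adult fat body, the tissue that makes yolk proteins in females, rose in part. Of 20 such genes 9 rose and 1 fell, against 22.9% and 26.7% of all tested genes. The median log2 fold change of the 20 was 0.08. The median depended on single libraries, at 0.02 without *w1118* replicate 1, 0.04 without mutant replicate 3, 0.12 without *w1118* replicate 2, 0.16 without mutant replicate 1 and 0.19 without *w1118* replicate 3. The count of genes that rose was 6 without mutant replicate 2, and 2 fell without mutant replicate 1. *Tsf1*, the iron-binding hemolymph protein transferrin, rose from 105 ± 3.95 to 212 ± 5.19 FPKM (log2 fold change 1.01, limma adjusted p = 9.1e-06), and *Obp99b*, an odorant-binding protein made by the fat body, from 209 ± 17.3 to 352 ± 22.2 FPKM (log2 fold change 0.75, limma adjusted p = 0.00017). The gene that fell, *sxe2*, a lipase gene named here after its value was seen, went from 18.6 to 7.88 FPKM. The markers summed to 1083 to 1116 FPKM in *w1118* and 1379 to 1424 FPKM in the mutants, and none was at 0. The part of fat body content in the rise of the storage protein genes was not tested.

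Markers of hemocytes, the blood cells of the fly, were also higher. Of 6 tested genes out of 8, 5 rose, against 22.9% of all tested genes. The median log2 fold change of the list was 0.25. The count was 3 without *w1118* replicate 3 and without mutant replicate 2. *Pxn*, an extracellular matrix peroxidase, rose from 6.55 ± 0.164 to 9.30 ± 0.513 FPKM (limma adjusted p = 0.00069), and *Hml*, the clotting factor hemolectin, from 5.93 ± 0.367 to 7.79 ± 0.629 FPKM (limma adjusted p = 0.0069). Their sum, which includes collagen genes that the fat body also expresses, was 97.7 to 101 FPKM in *w1118* and 112 to 124 FPKM in the mutants. None of the 8 was at 0, and their part in the results was not tested.

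Both *Fbp* genes rose by less than *Lsp2*. *Fbp1*, the gene of the LSP1 receptor (FBgn0000639, minus strand of 3L, 14094589 to 14098053), was at 45.2, 43.2 and 42.8 FPKM in *w1118* and at 78.5, 84.8 and 82.4 FPKM in the mutants. Its fold change had the smallest SE of the group, with means of 43.7 ± 1.30 and 81.9 ± 3.14 FPKM. The log2 fold change was 0.89 (SE 0.054, 95% confidence interval 0.76 to 1.01, limma adjusted p = 1.7e-05). *Fbp2* (FBgn0000640, plus strand of 2L, 9426784 to 9427917) was at 78.7, 67.6 and 66.3 FPKM in *w1118* and at 97.1, 91.3 and 85.9 FPKM in the mutants. The lowest mutant library exceeded the highest control by less than the range of the controls. The log2 fold change was 0.36 (SE 0.080, 95% confidence interval 0.18 to 0.55, limma adjusted p = 0.0065). The end of *Fbp2* overlaps CG42847, a gene on the same strand (2L, 9427870 to 9428740) whose level was 38.7 to 48.5 FPKM in *w1118* and 19.3 to 24.7 FPKM in the mutants, so reads in the shared stretch could be counted for either.

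The ratio of *Fbp1* to *Fbp2* was 0.575, 0.639 and 0.646 in *w1118* and 0.809, 0.928 and 0.960 in the mutants. It was higher in every mutant library (difference in mean log2 ratio 0.54, exact permutation p = 0.1). In *w1118* the group stood in the order *Lsp2*, *Fbp2*, *Fbp1*, *Lsp1gamma*, *Lsp1beta*, *Lsp1alpha*, *Yp3*, *Yp1* and *Yp2*. The libraries of *Fbp1* and *Lsp1gamma* overlapped, as did those of the yolk protein genes with one another. In the mutants the order was the same except that *Lsp1beta* stood second, between *Lsp2* and *Fbp2*.

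**Figure D3:**
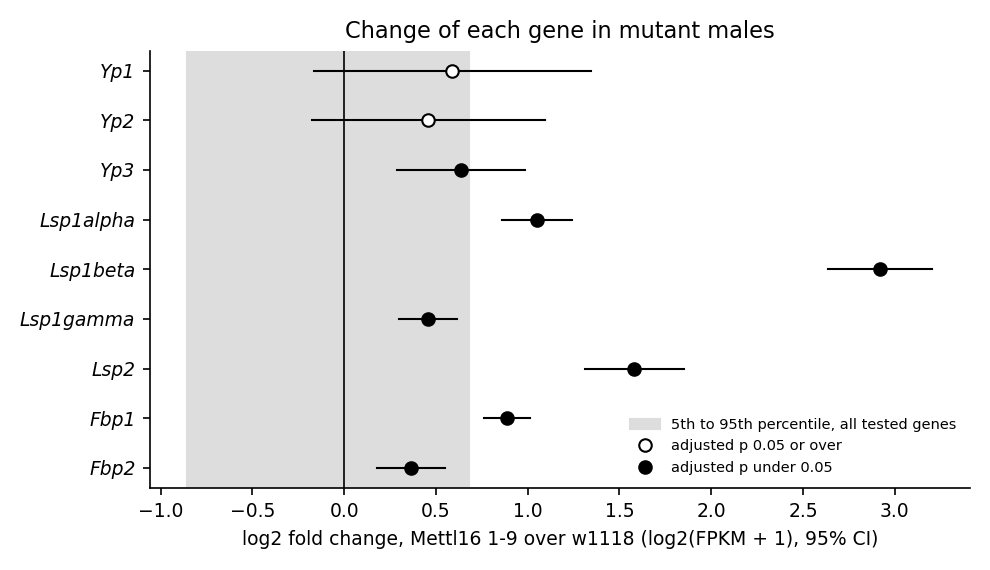
Log2 fold change of FPKM + 1, mutants over *w1118*, for each of the 9 genes, with 95% confidence intervals from limma over the 6 input libraries, filled points for an adjusted p under 0.05 and a grey band from the 5th to the 95th percentile of all tested genes (-0.86 to 0.68). *Lsp1beta* stands at 2.92 and *Lsp2* at 1.58, and the intervals of *Yp1* and *Yp2* reach below 0.

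*Fbp1* also differed in its annotated transcripts. Its 3 transcripts cover the same span and differ only in a short intron, which has 60 bases in FBtr0075749, 66 bases in FBtr0339515 and is retained in FBtr0075750. FBtr0075749 carried nearly all of the level in *w1118*, at 45.9, 44.0 and 43.5 FPKM, and stood at 69.0, 73.6 and 66.3 FPKM in the mutants. FBtr0339515 was listed at 0 in all 3 control libraries and at 10.7, 12.7 and 17.4 FPKM in the mutants, or 13.4%, 14.7% and 20.8% of the gene. The transcript that keeps the intron did not exceed 0.257 FPKM in any library. The background was 18896 isoforms of genes with at least 2 isoforms, a mean of 1 FPKM and a level above 0 in every library. Each had a mean share of 1 to 99% of its gene. Of these, 44 (0.233%) were listed at 0 in every control library and above 10% of their gene in every mutant library. This rule was chosen after the values of *Fbp1* were seen and is given here without a test.

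An isoform listed at 0 can be a failed estimate, since the estimate must assign reads that fit several transcripts. In *Lsp2*, for example, the shorter FBtr0089324 held 91.8% and 93.8% of the gene in *w1118* replicates 1 and 3 and 92.5 to 94.9% in the mutants, but was listed at 0 in *w1118* replicate 2. There the longer FBtr0345352, which differs at the 3' end, held the whole 110.001 FPKM. The gene level of *Lsp2* in that library lay between those of the other controls. Whether the 0 is a failed estimate was not tested. *Lsp1beta* had the shorter FBtr0078025 at 76.8%, 76.6% and 79.4% in *w1118* and 81.9%, 99.9% and 79.6% in the mutants. These did not overlap, as for 25.4% of the same 18896 isoforms. *Lsp1alpha* and *Lsp1gamma* have 1 annotated transcript each. The transcript shares of the yolk protein genes varied between libraries of a genotype and are not compared. FBtr0073821 of *Yp3*, for example, was listed at 0 in *w1118* replicates 1 and 2 and held 89.9% in replicate 3. The part of depth in this was not tested.

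**Figure D4:**
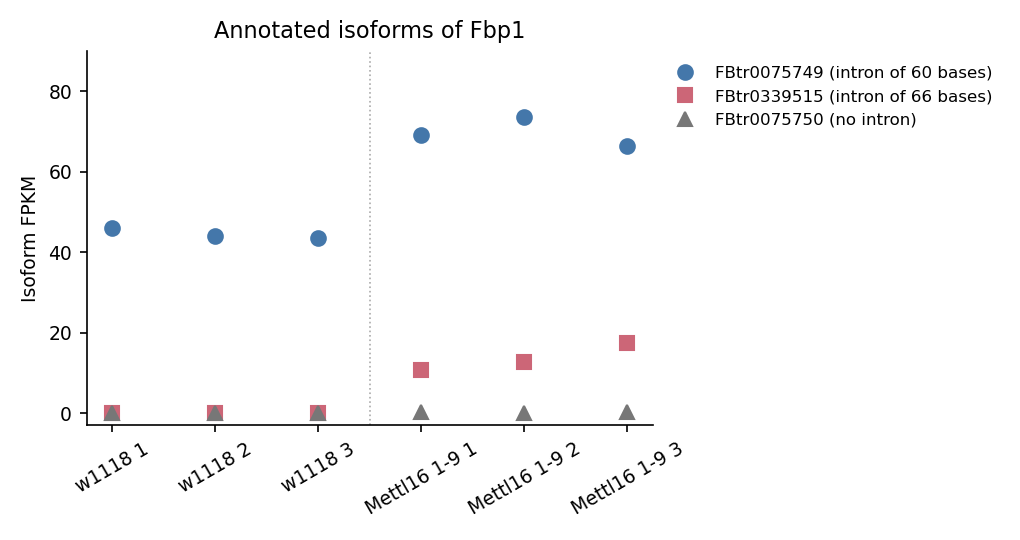
FPKM of the 3 annotated *Fbp1* transcripts in each of the 6 input libraries, one point per library. FBtr0339515 is at 0 in the *w1118* libraries and at 10.7 to 17.4 FPKM in the mutant libraries, while FBtr0075749 is the main transcript in all 6.

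The yolk protein genes were low in these males. *Yp3* (FBgn0004047, plus strand of X, 13759546 to 13761547) was at 1.25, 1.74 and 2.34 FPKM in *w1118* and at 3.71, 2.81 and 3.32 FPKM in the mutants. Every mutant library was higher, the means being 1.78 ± 0.547 and 3.28 ± 0.451 FPKM. *Yp3* rose with a log2 fold change of 0.64 (SE 0.15, 95% confidence interval 0.29 to 0.99, limma adjusted p = 0.0088). The level rests on about 48 to 145 read pairs per library, estimated from the coverage, against about 4705 to 17989 for *Lsp2*.

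*Yp1* and *Yp2* lie side by side on X in opposite orientation, 1174 bases apart. *Yp1* (FBgn0004045, plus strand, 10053811 to 10055498) was at 0.559, 1.61 and 2.76 FPKM in *w1118* and at 3.15, 1.67 and 3.70 FPKM in the mutants. *Yp2* (FBgn0005391, minus strand, 10050951 to 10052636) was at 0.371, 1.01 and 1.73 FPKM in *w1118* and at 1.84, 0.999 and 2.44 FPKM in the mutants. In both genes the genotypes overlapped. Mutant replicate 2 was close to *w1118* replicate 2, and *w1118* replicate 1 was the lowest library. The log2 fold changes were 0.59 for *Yp1* (SE 0.33, 95% confidence interval -0.17 to 1.34, limma adjusted p = 0.171) and 0.46 for *Yp2* (SE 0.27, 95% confidence interval -0.18 to 1.09, limma adjusted p = 0.202). Without *w1118* replicate 3, *Yp1* passed the threshold (log2 fold change 0.89, limma adjusted p = 0.0486). At about 18 to 107 read pairs for *Yp1* and 12 to 70 for *Yp2*, both intervals held 0 as well as a change of the size seen in *Fbp1*.

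*Yp1* and *Yp2* kept a near-constant ratio in every library while their levels varied. The ratio of *Yp2* to *Yp1* was 0.663, 0.629 and 0.626 in *w1118* and 0.583, 0.599 and 0.659 in the mutants. It did not separate the genotypes (difference in mean log2 ratio -0.06, exact permutation p = 0.4). The ratio of *Yp3* to *Yp1* varied more, from 0.848 to 2.23 in *w1118* and from 0.897 to 1.68 in the mutants, with a difference of -0.07 (exact permutation p = 1). The libraries of a genotype were ranked alike in 5 genes of the group: *Yp1*, *Yp2*, *Yp3*, *Lsp1beta* and *Lsp2* each had *w1118* replicate 1 lowest, *w1118* replicate 3 highest and mutant replicate 2 lowest. This order, picked after the values were seen, held for 2.87% of all tested genes. It did not hold for *Lsp1alpha*, *Lsp1gamma*, *Fbp1* or *Fbp2*. The fat body markers summed to 1116, 1083 and 1110 FPKM in *w1118* replicates 1, 2 and 3. In mutant replicates 1, 2 and 3 they summed to 1424, 1379 and 1412 FPKM. The source of the shared order was not tested.

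Eggshell and yolk uptake genes, which mark ovaries, had at most 0.993 FPKM in any library apart from *Cp15*, which reached 3.14 FPKM. Of 20 listed genes, *Cp16* and *Vm32E* were at 0 in every library, *yl*, which encodes the yolk receptor, had at most 0.256 FPKM and only *Cp15*, a chorion protein gene, reached the filter. *Cp15* was at 2.06 ± 1.01 FPKM in *w1118* and 1.16 ± 0.227 FPKM in the mutants (log2 fold change -0.45, SE 0.22, limma adjusted p = 0.123), so the list had no call, and none at an unadjusted p under 0.05. With no filter 2 genes of the list fell and 1 rose. Under the filter, *psd* had 0.618 to 0.993 FPKM in *w1118* and 0.0358 to 0.0674 FPKM in the mutants. *Vm26Aa* had 0.709 to 0.820 and 0.0559 to 0.481 FPKM. *Cp7Fa* was higher in the mutants, at 0 to 0.0545 and 0.157 to 0.306 FPKM. None of these overlapped between genotypes. The 20 genes summed to 4.75 to 6.22 FPKM in *w1118* and to 3.41 to 4.30 FPKM in the mutants, lower in every mutant library. These sums include *Cp15*, which was at 1.15 to 3.14 FPKM in *w1118* and 0.909 to 1.35 FPKM in the mutants, with overlap. Sums without *Cp15* are not given here. The summed yolk protein level was 2.18 to 6.83 and 5.47 to 9.46 FPKM.

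Some regulators of yolk protein transcription passed the test, as 49.6% of all tested genes did. Of 10 sex determination genes and factors that act on the yolk protein enhancers, 1 rose and 1 fell. Over all tested genes these shares were 22.9% and 26.7%. *srp*, the GATA factor of the fat body, rose from 6.49 ± 0.338 to 8.05 ± 0.499 FPKM (log2 fold change 0.27, SE 0.068, limma adjusted p = 0.0117). *slbo*, a C/EBP factor known from follicle border cells, fell from 1.07 ± 0.159 to 0.466 ± 0.041 FPKM (log2 fold change -0.49, SE 0.098, limma adjusted p = 0.0040). *dsx*, added for its direct role, was at 8.30, 7.08 and 7.76 FPKM in *w1118* and at 5.94, 6.96 and 7.45 FPKM in the mutants (log2 fold change -0.17, limma adjusted p = 0.168), and gene levels do not tell its male and female forms apart. With levels scaled to TPM, 3 genes of this list rose and 1 fell.

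Some genes of ecdysone signalling rose, where 22.9% of all tested genes did. Of 13 tested ecdysone response genes out of 15, 4 rose and none fell, and at an unadjusted p under 0.05 these counts were 6 and 0. Without mutant replicate 2, 3 of them rose, and without *w1118* replicate 1, 6. *Eip74EF*, an Ets factor induced early by ecdysone, rose from 3.93 ± 0.550 to 5.72 ± 0.301 FPKM (log2 fold change 0.45, limma adjusted p = 0.0042) and *Eip78C*, a nuclear receptor, from 1.99 ± 0.088 to 2.78 ± 0.075 FPKM (log2 fold change 0.34, limma adjusted p = 0.0051). Of 9 genes of ecdysone synthesis and turnover 3 were tested and 1 rose, *Oatp74D*, which encodes an ecdysone importer, from 3.28 ± 0.235 to 4.56 ± 0.061 FPKM (log2 fold change 0.38, limma adjusted p = 0.0026). With no filter 2 of that list rose and 2 fell, and with TPM scaling 2 rose and 1 fell. The median log2 fold change of the response list was 0.14.

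Of 8 juvenile hormone genes 5 rose and none fell, against 22.9% and 26.7% of all tested genes. The median log2 fold change of these 8 was 0.23. The count was 3 without *w1118* replicate 1 or 3 and without mutant replicate 1 or 3. *Jhe*, the esterase that degrades juvenile hormone, rose from 3.28 ± 0.503 to 7.82 ± 1.91 FPKM (log2 fold change 1.03, SE 0.15, limma adjusted p = 0.00094), and *Jheh2*, a hormone epoxide hydrolase, from 38.9 ± 1.51 to 47.1 ± 2.42 FPKM (log2 fold change 0.27, limma adjusted p = 0.0067). Among 9 genes of nutrient storage and signalling 5 rose and 1 fell, with a median of 0.27. *Tor*, the kinase that couples growth to amino acids, rose from 4.73 ± 0.236 to 8.37 ± 0.570 FPKM (log2 fold change 0.71, limma adjusted p = 0.00014), and its target kinase gene *S6k* from 17.5 ± 0.636 to 24.1 ± 0.885 FPKM (log2 fold change 0.44, limma adjusted p = 0.00048).

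The 9 genes are spread over X, 2L and 3L, and their neighbours were examined against the 22.9% of tested genes that rose and the 26.7% that fell. Within 50 kb of *Lsp1beta* 15 other genes were tested, of which 6 rose and 4 fell, with a median log2 fold change of 0.13. All 6 tested neighbours of *Lsp1gamma*, near the tip of 3L, fell, by 0.32 to 0.54 on the log2 scale, while *Lsp1gamma* itself rose. Around *Fbp2* 1 of 10 rose and 6 fell, and around *Lsp2* 5 of 18 rose and 4 fell. Around *Yp3* 2 of 19 rose and 2 fell. No neighbour fell around *Yp1* and *Yp2*, *Lsp1alpha* or *Fbp1*, where 5 of 10, 3 of 6 and 3 of 9 rose, with median log2 fold changes of 0.20, 0.22 and 0.11. Antisense genes overlap *Yp1* and *Lsp2* on the opposite strand, with at most 0.0733 and 0.157 FPKM.

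The genes whose levels followed each storage protein gene most closely over the 6 input libraries were listed by Pearson correlation of log2(FPKM + 1) among 8714 genes whose mean reached 5 FPKM. The libraries come from 2 genotypes, so any gene that differs between them with little spread gives a high value. For *Lsp1beta* these were *CG15784*, at 26.5 and 102 FPKM in *w1118* and mutants, and *Cyp4d14*, at 3.48 and 11.1 FPKM, with r of 0.999 and 0.998. *Lsp2* was followed by *tamo* and *VhaAC39-1* and *Lsp1alpha* by *CG10011* and *qless*, all with an r that rounds to 0.999. *Fbp1* was followed by *SclA*, with r of 0.9996, and *Vps52*, with 0.999. *Xpc* and *bwa* were nearest to *Fbp2*, with r of 0.999 and 0.998, and *AspRS-m* and *CG2556* to *Lsp1gamma*, both with r of 0.996.

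In the m6A data of the mutants, 7 of the 9 genes had a listed peak, a region where IP exceeds input, and *Yp2* and *Fbp2* had none. Of all tested genes 81.8% had a listed peak, a share close to that of this group. All 9 peaks of these genes were annotated to the 3' UTR, as were 60.8% of the 21991 entries in the mutants' peak list, and 8 of the 9 had a false discovery rate under 0.05. The values are the authors' for the 3 replicates together and have no spread. *Fbp1* had the strongest, with a log2 enrichment of 3.47 (3L, 14094589 to 14094738), above 82.1% of all entries, whose median was 2.32 and quartiles 1.54 and 3.16. The peak of *Lsp1gamma* (3L, 68697 to 68995) had 2.55 and that of *Yp1* (X, 10055289 to 10055498) 2.38, both near the median.

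*Lsp2* had 3 entries. A pair of overlapping peaks had log2 enrichments of 2.17 (3L, 12131481 to 12131750) and 2.20 (3L, 12131487 to 12131696), and a short peak at the 3' end of the longer transcript had 1.74 (3L, 12131809 to 12131869) at a false discovery rate of 0.101. *Yp3* (X, 13761043 to 13761132) had 1.19, in a peak that ended 415 bases before the 3' end of the gene. That end, at 13761547, is the end of the longer FBtr0346090. The peak was annotated to FBtr0073821, which ends at 13761167, close to the end of the peak. The lowest enrichments were those of *Lsp1alpha* (X, 12492863 to 12492982), at 0.73, and *Lsp1beta* (2L, 901197 to 901316), at 0.64, above only 4.79% and 3.36% of all entries. Enrichment is a ratio of IP to input, not a level of the mRNA. The authors' comparison of peaks between genotypes has 3088 entries, which touch 18.8% of all tested genes. The paper counts far fewer peaks as changed at its thresholds. The fold changes and p-values of the entries were not used here, so a listed peak is not called changed. The comparison lists 2 of the 9 genes, with peaks at the 3' ends of *Lsp1beta* (2L, 901167 to 901316) and *Fbp1* (3L, 14094589 to 14094768). The *w1118* peak list was not analysed here, so no count of peaks is compared between genotypes.

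**Figure D5:**
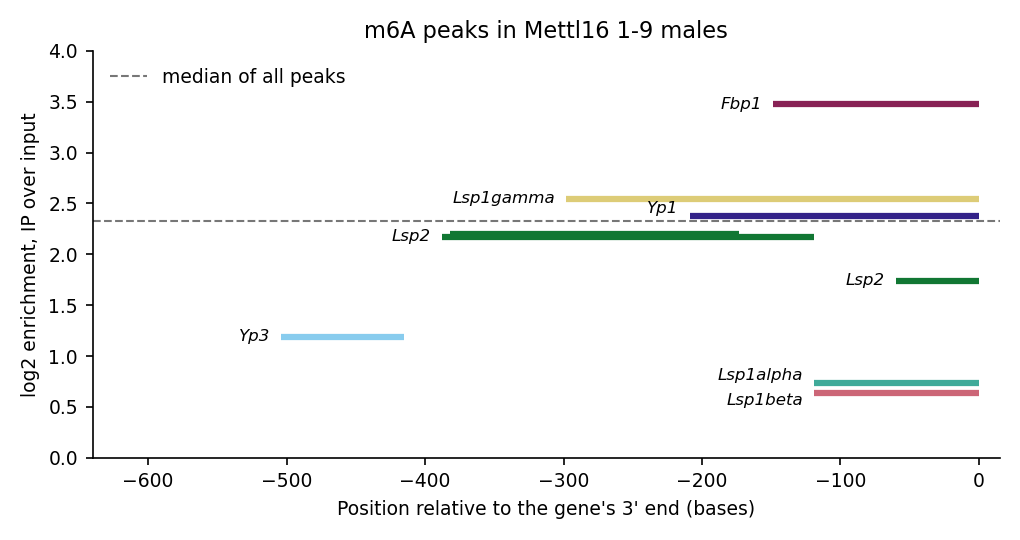
Log2 enrichment of IP over input of each m6A peak listed in *Mettl16 1-9* males for the 9 genes, drawn from its first to its last base as distance from the 3' end of the gene. The peaks range from 0.64 in *Lsp1beta* to 3.47 in *Fbp1*, and the dashed line is the median of all listed peaks, 2.32.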

How the data were processed

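Input libraries of 2 genotypes were compared. Per the methods, the authors used fastp for trimming, FastQC and RseQC for quality, HISAT2 for alignment (reference release v107) and StringTie for the FPKM of genes and isoforms in the input libraries. The deposited isoform table also gives the mean coverage per base, not scaled to depth, and its quotient with FPKM gave the aligned bases, of which 300 were taken as a read pair. The authors called peaks with exomePeak on the 3 replicates together, and their deposited log2 enrichment and adjusted p-value (false discovery rate) are given as they stand. Fold changes and p-values in the authors' tables of differential genes (edgeR) and differential peaks hold their own comparisons and were not used. Peak starts count from 0, so 1 was added. Libraries keep strand, and whether counting used it is not given in the sources used here.

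Columns were matched by genotype, library type and replicate number, and 9 further per-sample columns of genes and 18 of isoforms were left out. The 13866 of 21076 genes whose mean reached 0.5 FPKM, all 9 members included, entered limma 3.58.1 (R 4.3.3) with its trend option, on log2(FPKM + 1), by genotype alone, with Benjamini-Hochberg adjustment. The fit was tested on simulated data. Ratios were compared with exact two-sided permutation tests. Named were the 9 members, *Mettl16*, up to 2 called genes per list by smallest adjusted p (otherwise the gene of highest level) and the 2 genes most like each member of at least 5 FPKM. *dsx*, *sxe2*, *CG42847*, *Eig71Eb*, *Sgs1*, *Lcp3* and other genes under the filter were added after their values were seen. The lists were the 3 member families, prophenoloxidases, sex determination and yolk enhancer regulators, ecdysone synthesis and turnover, ecdysone response, juvenile hormone, adult fat body, eggshell and yolk uptake, larval tissues, hemocytes, and nutrient storage and signalling. The members and lists were chosen with earlier results of these data known. Alternatives were a pseudocount of 0.1, no filter or one of 5 FPKM, scaling by median ratios or to TPM, isoform sums, a replicate block and leaving out each library.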

Additional observations from a re-analysis of the deposited data

How the results depend on the processing

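*Lsp1alpha*, *Lsp1beta*, *Lsp1gamma*, *Lsp2*, *Fbp1* and *Fbp2* stayed higher past the threshold under all 13 alternatives, with log2 fold changes of 0.99 to 1.15, 2.80 to 3.03, 0.40 to 0.52, 1.46 to 1.69, 0.86 to 0.96 and 0.32 to 0.44. *Yp3* did so under the 12 that tested it (0.49 to 0.88, highest adjusted p 0.0347), since the yolk protein genes drop out at a mean of 5 FPKM. *Yp2* passed under none of 12 (0.20 to 0.83) and *Yp1* only without *w1118* replicate 3. Leaving out one library gave *Yp1* values of 0.25 to 0.89. The list calls in the lower direction went from 3 to 6 with no filter, 6 with TPM scaling and 5 with isoform sums. In each of these settings the eggshell list had 2 of the calls. Without single libraries the list calls were 2 to 4, and the eggshell list had 1, only without *w1118* replicate 2. The difference in the *Yp3* to *Yp1* ratio changed sign with isoform sums (0.026) and a pseudocount of 1 (0.049) and ranged from -0.36 to 0.34 without single libraries, and its cause was not tested. The methods name no pairing of replicates, so none was used. The deviations of same-numbered libraries correlated at -0.036, -0.061 and -0.027. Such deviations from means of 3 libraries cannot show whether preparations were paired. With a replicate block 7 members were higher, as without it, and 2687 genes rose and 3397 fell. In this balanced design the block cannot move a log2 fold change, so *Lsp1beta* stays at 2.92 and *Yp1* at 0.59. Only the p-values can differ, with limma adjusted p = 0.00010 for *Lsp1beta* and 0.117 for *Yp1* under the block. The block gave 3 higher calls among juvenile hormone genes, against 5 without it. The yolk protein genes have the fewest reads of the group, and 3 against 3 libraries cannot take an exact permutation test below 0.1.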
